A study of Mus musculus with 8 samples.

Results

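Total RNA was sequenced from mouse mesangial cells (MMC), the contractile cells that hold the capillary loops of the kidney glomerulus together, in cultures from wild-type (WT) mice and from mice with a deletion at miR-379 (miR-379KO). Of the 8 libraries of the series, the 4 labelled as total RNA sequencing were taken, 2 per genotype (WT A and B, miR-379KO A and B), and the other 4, made from RNA recovered with the Argonaute protein AGO2, enter no comparison here. Both genotypes carried the strain label C57BL/6J, were left untreated and were grown in RPMI medium with foetal bovine serum, and the labels give no age for the mice. The deletion was made in fertilized eggs with Cas9 nickase and guide RNAs and bred to homozygosity, so it was present in every cell of the animal from the start. The cells were primary cultures grown from sieved glomeruli. The labels do not say whether A and B came from separate animals or separate cultures, so the p-values measure only the spread between these samples, which may be technical.

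MicroRNAs are short RNAs that Argonaute proteins carry to messenger RNAs, where pairing of the seed near the microRNA's 5′ end with a site in the 3′ untranslated region (UTR) lowers translation and the stability of the message. miR-379 is the most 5′ member of a large microRNA cluster in the imprinted Dlk1-Dio3 domain of mouse chromosome 12. In mesangial cells, which secrete and remodel the matrix between the capillaries, total RNA holds both direct targets and whatever follows from them. The mature sequences of miR-379 are given from RefSeq (GRCm38.p6, plus strand, chr12:109709065-109709085 for the 5p arm and chr12:109709102-109709123 for the 3p arm), since they are the molecules the deletion was meant to remove. The seed, bases 2 to 8, is in capitals.
miR-379-5p: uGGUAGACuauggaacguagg
miR-379-3p: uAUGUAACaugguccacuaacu
The 3′ UTRs of 3 of the 8 genes that the study named as candidate targets hold a full complement of the 5p seed, in capitals below. They are shown as places where the lost microRNA could pair. Other sites were proposed too, since the study's reporter assays covered a miR-379 site in Txn1, whose 3′ UTR holds 0 such complements. On the plus strand the 3 stretches shown lie at chr5:136966114-136966142, chr1:151821011-151821039 and chr2:129211561-129211589.
Fis1: gcacccctgtaGTCTACCtctacagtctc
Edem3: agaaacatctgGTCTACCtcagttaaatg
Slc20a1: catgttcatctGTCTACCtcttaactgaa

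The deletion itself could not be read from these libraries. Mir379 had 0 counts in all 4, and the poly(A) kit with which they were made does not capture mature microRNAs, so the 0 checks neither label. Values are given for WT A and B against miR-379KO A and B, in CPM, which are counts per 1000000 gene counts after TMM scaling. Of the longer transcripts of the domain, Mirg, the host RNA downstream of miR-379, was scarce at 2.03 and 2.08 against 1.22 and 1.76 CPM (log2 fold change −0.47, SE 0.47, unadjusted p = 0.354). Meg3, the maternally expressed non-coding RNA, stood at 64.8 and 20.4 against 22.1 and 32.5 CPM. Its neighbour Rian stood at 152 and 112 against 119.7 and 192 CPM. Dlk1, a paternally expressed Notch-like ligand, read 3.88 and 3.83 against 4.13 and 10.04 CPM. Dio3, a deiodinase that inactivates thyroid hormone, read 2.33 and 4.60 against 2.57 and 0.705 CPM. None of the 5 tested genes of the domain passed an unadjusted p of 0.05, and only Dlk1, higher in both miR-379KO libraries, and Mirg, lower in both, kept the genotypes apart. Rtl1 had 0 counts throughout.

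WT A held 17168113 gene counts and WT B 17395885, whereas miR-379KO A held 22660600 and miR-379KO B 17756671. Enough counts for a test were found for 12318 genes. Fold changes are of miR-379KO over WT. The spread between replicates was larger than the difference between genotypes. The first principal component, with 60.1% of the variance, ran from WT A to WT B and left both miR-379KO libraries between them, and for 3913 of the 12318 genes (31.8%) both miR-379KO values lay between the WT values. The median gap between replicates was 0.36 on the log2(CPM + 1) scale in WT and 0.20 in miR-379KO, compared to a median difference of 0.15 between the genotype means. The gap within WT passed 1.5-fold for 3363 genes, the gap within miR-379KO for 1353, and the difference between genotype means for 326. Means vary less than single libraries, so a difference of means tends to be smaller than a gap between replicates even at equal spread.

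No gene passed an adjusted p of 0.05 in edgeR's quasi-likelihood test with Benjamini-Hochberg adjustment (0 of 12318, 0%), and 91 genes (0.739%) had an unadjusted p under 0.05. The study itself called genes at more than a 1.5-fold change with p below 0.05 before adjustment. At that cutoff 41 genes (0.333%) were higher and 43 (0.349%) were lower in miR-379KO MMC. Both miR-379KO values lay above both WT values for 1219 genes (9.9%) and below both for 1117 (9.07%). These shares are the background for every group of genes below. A gene is called separated where the 2 miR-379KO values lie on the same side of the 2 WT values. A group's level in a library is the mean over its tested members of log2(CPM + 1), less each gene's mean over the 4 libraries.

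Collagen genes were the group with the most separated members on the lower side. Of 24 listed collagen genes 23 were tested, and 21 of these had a lower fitted value in miR-379KO MMC. Of the 23, 8 were separated (34.8% against 9.07% of all genes) and none lay above WT. The median log2 fold change was −0.37, compared to −0.01 over all tested genes. The group's level was 0.30 and 0.07 against −0.21 and −0.16 (WT A and B against miR-379KO A and B). The miR-379KO levels lay below both WT levels. The difference of the genotype means, −0.37, was larger than the gap between the WT libraries (0.23) and that between the miR-379KO libraries (0.05). Without WT A the median shrank to −0.17.

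The collagen genes that passed the study's cutoff, all lower, were Col6a1, Col6a2, Col3a1 and Col15a1. Col6a1 and Col6a2 encode chains of type VI collagen, the beaded microfibrils around cells, and lie near each other on chromosome 10 (chr10:76708792-76726044 and chr10:76595756-76623630 in GRCm38.p6). Col6a1 was at 105 and 97.3 against 56.6 and 68.1 CPM (log2 fold change −0.70, SE 0.21, unadjusted p = 0.0158). Col6a2 was at 16.2 and 20.03 against 10.4 and 8.93 CPM (log2 fold change −0.90, SE 0.25, unadjusted p = 0.0114). For both chains each miR-379KO library was clear of each WT library. Col6a3, the remaining chain of the heterotrimer, was scarce at 0.954 and 0.547 against 0.391 and 5.64 CPM, and its only high value was in miR-379KO B. Col3a1, a fibrillar collagen of compliant tissue, read 548 and 407 against 299 and 303 CPM (log2 fold change −0.66, SE 0.26, unadjusted p = 0.0401), with the miR-379KO values close to each other and WT A far above WT B. Col15a1, a collagen of the basement membrane zone, read 6.62 and 6.29 against 4.0 and 2.11 CPM (log2 fold change −1.07, SE 0.41, unadjusted p = 0.0377).

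The other separated collagens did not pass that cutoff. Col12a1, which binds to fibril surfaces, stood at 361 and 192 against 162 and 179.9 CPM, with WT A high and WT B only slightly above miR-379KO B. Col5a3, a minor fibrillar chain, stood at 56.2 and 117 against 34.4 and 54.04 CPM, and WT A was close to miR-379KO B. Col8a1 and Col5a1 had log2 fold changes of −0.36 and −0.35. Col1a1 and Col4a1, the most abundant collagen transcripts in these cultures, were not separated, and neither were Col4a2 and Col1a2. Col4a1 and Col4a2 encode the main chains of the network of type IV collagen. Col4a1 read 5916 and 3739.9 against 4557 and 3546 CPM and Col4a2 read 3343 and 2313 against 2669.5 and 2284 CPM, so WT B lay within the miR-379KO range. Of type I collagen, Col1a1 read 5020.2 and 5788 against 2811 and 5314 CPM and Col1a2 read 2432 and 609 against 1557 and 2196 CPM. For Col1a2 the gap between the WT libraries was wider than any difference between genotypes.

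**Figure D1:**
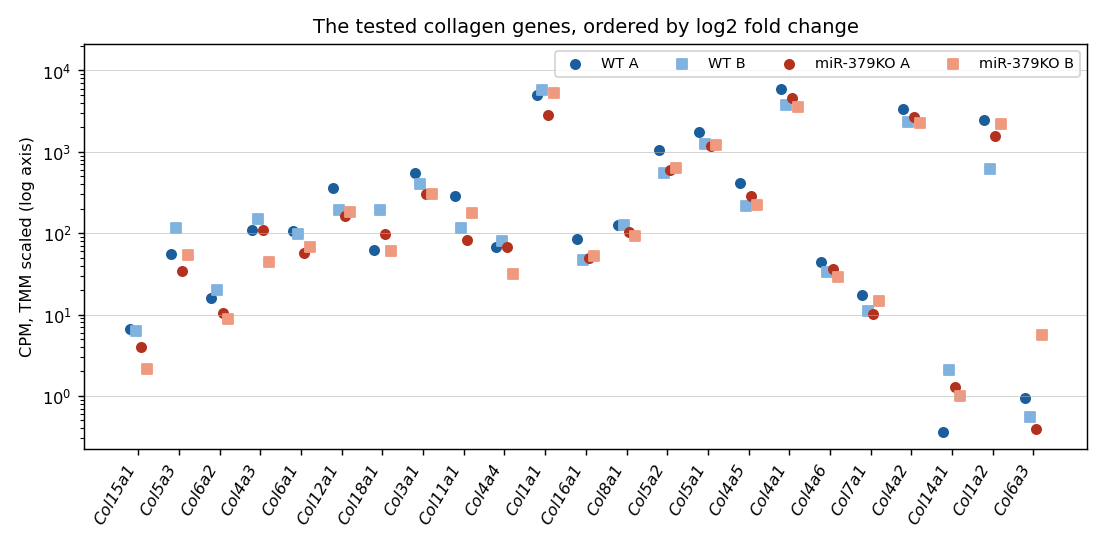
Normalised counts (CPM, log axis) of the 23 tested collagen genes in each total RNA library, ordered from the lowest to the highest log2 fold change of miR-379KO over WT, each point being 1 library. Both red miR-379KO points lie under both blue WT points for 8 genes, Col6a1, Col6a2 and Col3a1 among them, and the points overlap for the others.

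Other matrix genes were split. Among 32 tested matrix glycoproteins and matricellular genes, 4 were separated below WT and 4 above. Each is 12.5%, near the 9.07% and 9.9% of all genes. Postn, or periostin, a matricellular protein of healing and fibrotic tissue, was at 19.7 and 20.7 against 10.9 and 10.7 CPM (log2 fold change −0.90, SE 0.23, unadjusted p = 0.00656). The replicates of each genotype nearly coincided. Wisp1, a secreted CCN family protein, was at 349.5 and 333 against 213 and 245 CPM (log2 fold change −0.58, SE 0.22, unadjusted p = 0.0406), just short of the 1.5-fold cutoff. On the opposite side, Cyr61, another CCN family member, was at 566 and 999 against 1553 and 1161 CPM. Sparc, a collagen-binding protein, was at 5659 and 6139 against 7218 and 6694 CPM. Ctgf, the profibrotic CCN family member, was at 3876 and 3116 against 4761 and 4005 CPM. None of these 3 had an unadjusted p under 0.05, although both miR-379KO values were above both WT values.

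Genes of the plasminogen system lay on the higher side. Serpinb2, which encodes a plasminogen activator inhibitor, had the smallest p of all tested genes on the higher side, at 1.43 and 1.31 against 6.48 and 4.82 CPM (log2 fold change 2.04, SE 0.39, unadjusted p = 0.00169). It was a rare transcript, and both miR-379KO values stood well clear of both WT values. Plau, the urokinase-type activator, read 104 and 90.5 against 157 and 118 CPM. Plaur, its receptor, read 45.2 and 67.98 against 81.1 and 82.8 CPM. Both were separated, with unadjusted p of 0.0741 and 0.0824. Timp1, an inhibitor of matrix metalloproteinases, read 266 and 326 against 421 and 365 CPM. By contrast, the metalloproteinase genes Adamts1, Adam12 and Adamts5 were separated below WT, with log2 fold changes of −0.75, −0.42 and −0.34 and p above 0.05.

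Immediate early genes, which encode transcription factors and regulators that growth factors induce within minutes without new protein synthesis, formed a group with a high median. Of 27 tested members 23 had a higher fitted value. Above WT, 10 were separated (37% against 9.9% of all genes), and 1, Klf10, was separated below. The median log2 fold change was 0.71, and the level was −0.89 and 0.04 against 0.71 and 0.14. The genotypes did not overlap, but WT B and miR-379KO B differed by 0.10, far less than the gap between the WT libraries (0.92) or between the miR-379KO libraries (0.57). The median was 1.27 without WT B and 0.44 without miR-379KO A.

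The members that passed the study's cutoff were Egr3, Egr2, Nr4a1 and Klf2. Egr3, a zinc finger factor induced by growth factors, was at 4.47 and 12.2 against 63.4 and 19.1 CPM (log2 fold change 2.31, SE 0.71, unadjusted p = 0.0193). Its relative Egr2 was at 11.9 and 25.4 against 81.5 and 31.8 CPM (log2 fold change 1.60, SE 0.54, unadjusted p = 0.025). In both genes miR-379KO A was far above the remaining libraries and miR-379KO B was nearer to WT B than to miR-379KO A. Nr4a1, an orphan nuclear receptor, was at 34.6 and 40.8 against 114 and 71.4 CPM (log2 fold change 1.30, SE 0.29, unadjusted p = 0.00369), with close WT replicates. Klf2, a Krüppel-like factor that restrains inflammatory gene expression, was at 12.2 and 18.5 against 31.6 and 34.2 CPM (log2 fold change 1.10, SE 0.27, unadjusted p = 0.00639), with both miR-379KO libraries well above WT. Without miR-379KO A the log2 fold change of Egr3 was 1.22, that of Egr2 was 0.79, that of Nr4a1 was 0.94 and that of Klf2 was 1.18.

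Better known members of the group were overlapping or barely separated. Fos, the partner of Jun in the factor AP-1, read 4.18 and 73.6 against 144 and 61.7 CPM, so that WT B exceeded miR-379KO B and the low value was that of WT A. Fosb showed the same order at 1.13 and 15.4 against 50.1 and 12.5 CPM. Egr1 was separated at 69.4 and 377 against 656 and 379.5 CPM, although WT B and miR-379KO B were nearly equal. Zfp36, which encodes an mRNA-destabilizing protein, had the same order at 26.6 and 86.4 against 180.1 and 88.9 CPM.

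The genes that report ERK kinase activity as its feedback inhibitors, together with ligands of the epidermal growth factor receptor (EGFR), lay on the same side. Of 24 tested members 9 were separated above WT (37.5%) and 1 below. The study's cutoff was passed by 5, all higher. The median log2 fold change was 0.39, and the level was −0.28 and −0.10 against 0.37 and 0.02. This was a difference of 0.38 between genotype means compared to a gap of 0.35 between the miR-379KO libraries. Without miR-379KO A the median was 0.10. Several listed genes are targets of the same kinase, so they are not independent of each other.

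Among the inhibitors, Dusp5, a nuclear phosphatase for ERK, was at 19.1 and 27.4 against 70.7 and 43.5 CPM (log2 fold change 1.30, SE 0.32, unadjusted p = 0.00653). Dusp6, its cytoplasmic counterpart, was at 46.6 and 73.3 against 173 and 90.4 CPM (log2 fold change 1.13, SE 0.38, unadjusted p = 0.0233). Spry2, which blocks receptor tyrosine kinase signalling upstream of ERK, was at 13.1 and 14.5 against 27.96 and 24.03 CPM (log2 fold change 0.92, SE 0.23, unadjusted p = 0.00651). Phlda1, a further ERK-induced gene, was at 99.97 and 153 against 226 and 204 CPM (log2 fold change 0.76, SE 0.27, unadjusted p = 0.028). Spry2 showed the tightest replicates of these, and for Dusp5 and Dusp6 miR-379KO A was again the highest library. Among the ligands, Ereg, or epiregulin, was at 10.2 and 8.16 against 21.4 and 19.5 CPM (log2 fold change 1.16, SE 0.25, unadjusted p = 0.0032), with little spread in either genotype and a clear space between them. Hbegf, another EGFR ligand, was at 212 and 285 against 382 and 268 CPM, with WT B above miR-379KO B. Egfr itself was at 409.8 and 268 against 333 and 281 CPM. Spry1 was the separated member on the lower side, with a log2 fold change of −0.35.

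**Figure D2:**
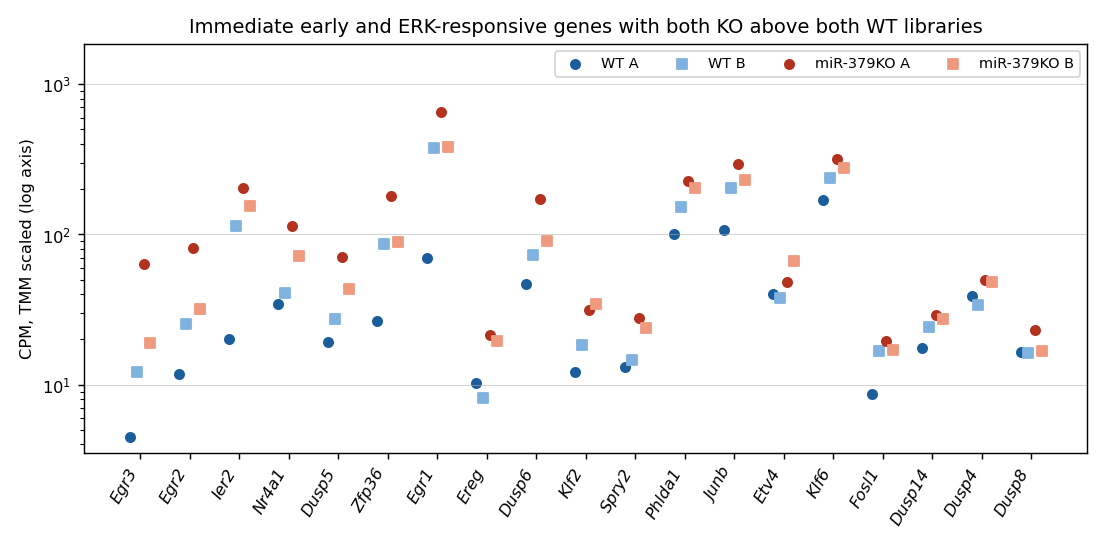
Normalised counts (CPM, log axis) in each library of the 19 immediate early, ERK feedback and EGFR ligand genes for which both miR-379KO values (red) exceeded both WT values (blue), ordered by log2 fold change. miR-379KO A is the highest point for most genes and WT A the lowest, while WT B and miR-379KO B lie close together for Egr1, Zfp36 and Fosl1.

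Promoters of these groups were searched for 6 motifs in RefSeq sequence (GRCm38.p6), from 250 bases before to 50 after the start and on both strands except where stated. Entries existed for 9827 of the 12318 tested genes. The CArG box, the site of serum response factor, was found in 1.6% of the tested genes' promoters. It was found in 2 of the 20 immediate early genes with an entry (Egr2 and Zfp36), 1 of 18 in the ERK group (Dusp5) and 6 of 21 contractile genes (Cnn2, Myl9, Myl6, Vcl, Srf and Ldb3). The cAMP response element TGACGTCA, in 3.68% of the tested genes' promoters, was found in 2 of 20, 4 of 18 and 1 of 21. Its short form TGACG, in 36%, was found in 13 of 20, 7 of 18 and 7 of 21. The AP-1 site TGANTCA, in 6.09%, was found in 1 of 20, 0 of 18 and 4 of 21. The TATA box TATAAA, searched on the gene's strand only and in 5.16%, was found in 2 of 20, 2 of 18 and 1 of 21. The sterol element TCACNCCAC, in 1.38%, was found in 0 of each and in 1 of 17 promoters of cholesterol synthesis genes. No collagen promoter held a CArG box or TGACGTCA among 18 with an entry. Stretches of 30 bases are shown with each CArG box in capitals for separated genes of each group (Dusp5 has 2 adjoining boxes), on the gene's strand, at chr10:67537484-67537513 (plus), chr7:28379267-28379296 (minus), chr19:53529053-53529082 (plus) and chr10:128493040-128493069 (minus).
Egr2: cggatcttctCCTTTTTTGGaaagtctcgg
Zfp36: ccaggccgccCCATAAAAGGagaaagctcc
Dusp5: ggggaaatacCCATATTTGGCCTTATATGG
Myl6: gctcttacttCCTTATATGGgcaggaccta
A match describes the letters only, and the lists are too short for these shares to be ranked.

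Targets of FoxO factors, which growth factor signalling through AKT keeps out of the nucleus, were mostly on the lower side. Of 19 tested members 17 had a lower fitted value, 6 were separated below WT (31.6% against 9.07%) and 2 above. The level was 0.29 and −0.04 against −0.10 and −0.16. Fbxo32, or atrogin-1, a ubiquitin ligase component of muscle wasting, had the smallest p of all tested genes on the lower side, at 26.9 and 20.1 against 10.5 and 12.2 CPM (log2 fold change −1.06, SE 0.26, unadjusted p = 0.00596). Txnip, which inhibits thioredoxin, was at 238 and 199 against 145 and 164 CPM. Gadd45a, a stress-induced growth arrest gene, was at 42.2 and 40.8 against 28.9 and 30.1 CPM. Sesn3, an antioxidant sestrin, was at 28.6 and 28.5 against 22.2 and 15.98 CPM. These 3 were separated with unadjusted p of 0.0626, 0.0511 and 0.0575. The group's median of −0.24 was reversed to 0.10 without WT A.

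In some signalling and stress lists only 1 or 2 genes passed the study's cutoff. Igfbp3, which binds insulin-like growth factors in the medium, was the only one of 14 tested genes of that axis past the study's cutoff, at 6.08 and 3.07 against 13.7 and 13.1 CPM (log2 fold change 1.55, SE 0.38, unadjusted p = 0.00617). Ptgs2, the inducible cyclooxygenase, was at 198 and 269.6 against 429.8 and 392 CPM (log2 fold change 0.81, SE 0.26, unadjusted p = 0.0184). It alone of 22 genes on the chemokine and cytokine list passed it. Of 19 hypoxia genes, Adm, the vasodilator peptide adrenomedullin, and Egln3, an oxygen-sensing hydroxylase, passed the cutoff on the higher side. Adm was at 10.5 and 12.6 against 19.5 and 23.3 CPM (log2 fold change 0.89, SE 0.24, unadjusted p = 0.0104) and Egln3 at 2.86 and 2.46 against 4.78 and 5.82 CPM (log2 fold change 0.99, SE 0.35, unadjusted p = 0.0291). Against that, Vegfa, Hif1a and Ddit4 were among 5 hypoxia genes separated below WT, with log2 fold changes of −0.23, −0.29 and −0.44. The share below was 26.3% against 9.07% of all genes, and the share above was 15.8% against 9.9%. Hspa1a, an inducible chaperone, was rare and read 1.19 and 1.20 against 2.96 and 2.35 CPM. Hspb1, Dnajb1 and Cryab were among 6 of 22 heat shock genes separated above WT (27.3% against 9.9% of all genes), with none below. The levels of that list overlapped between genotypes, at −0.18 and 0.03 against 0.02 and 0.13. Its median log2 fold change was 0.07, and −0.00791 without WT A.

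Contractile genes differed from each other. Of 26 tested, 7 were separated above WT (26.9%) and 1 below, but the level of the group overlapped between genotypes. The separated gene on the lower side was Actg2, the enteric smooth muscle actin, which was at 701 and 578 against 144 and 317 CPM (log2 fold change −1.47, SE 0.41, unadjusted p = 0.0105), the only member past the study's cutoff. Acta2, the vascular smooth muscle actin that marks activated mesangial cells, lay on the other side at 6885 and 9091 against 10606 and 10696 CPM. So did Tagln, an actin-binding protein, at 4019 and 4968 against 6825 and 5895 CPM, and Myl6, a myosin light chain, at 801 and 1009.7 against 1100.1 and 1340.1 CPM. Srf, the factor that binds CArG boxes, was at 92.6 and 89.5 against 106 and 101 CPM. For Acta2, Tagln and Myl6 the miR-379KO libraries were both above WT but the unadjusted p were 0.226, 0.141 and 0.17.

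Genes of cholesterol synthesis had slightly higher fitted values. Of 25 tested, 21 had a higher fitted value. Of the 25, 7 were separated above WT (28%), none was below and none passed the study's cutoff. In the fit corrected for exon length and GC content 3 were separated above WT. The median log2 fold change was 0.14, and without miR-379KO B it was 0.0139. Nsdhl, a sterol dehydrogenase, was at 15.2 and 18.2 against 21.9 and 23.7 CPM. Dhcr7, which makes cholesterol from its last precursor, was at 13.96 and 9.41 against 14.4 and 16.3 CPM. Insig1, which retains the sterol sensor in the endoplasmic reticulum, was at 34.2 and 24.1 against 36.1 and 38.9 CPM. The level of the group, −0.06 and −0.08 against −0.05 and 0.19, left a space of only 0.005 between WT A and miR-379KO A.

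Among 17 tested genes of glycolysis, which turns glucose into pyruvate, 16 had a higher fitted value and 5 were separated above WT (29.4%). Their median of 0.20 (log2) was reversed to −0.00585 without WT A, and no gene had an unadjusted p under 0.05. The level was −0.27 and 0.07 against 0.10 and 0.10, so the miR-379KO libraries differed by only 0.000945 and WT A alone was low. Pgk1, the phosphoglycerate kinase, was at 474 and 675 against 708 and 776 CPM. Pfkl, the liver-type phosphofructokinase, was at 108 and 129.9 against 159.8 and 139 CPM. The exception was Hk2, the inducible hexokinase, which was separated below WT at 140.0 and 112 against 94.3 and 87.2 CPM (unadjusted p = 0.0686). Targets of ATF4, the transcription factor of the amino acid and unfolded protein responses, varied with the library instead, with levels of −0.21 and 0.29 against −0.23 and 0.16. Of 25 members 5 were separated below WT (20% against 9.07% of all genes) and none above. Among the 5 was Vldlr, a lipoprotein receptor, at 42.9 and 51.3 against 33.4 and 35.4 CPM. Ddit3, the stress-induced factor CHOP, was at 34.1 and 40.7 against 40.4 and 38.2 CPM. Only 10 of 48 replication-dependent histone genes had counts enough for a test, as their transcripts lack the poly(A) tail that the kit selects. Of these 1, Hist1h3b, was separated above WT and 2, Hist1h1b and Hist1h1e, below, each near or under the level of 1 CPM.

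**Figure D3:**
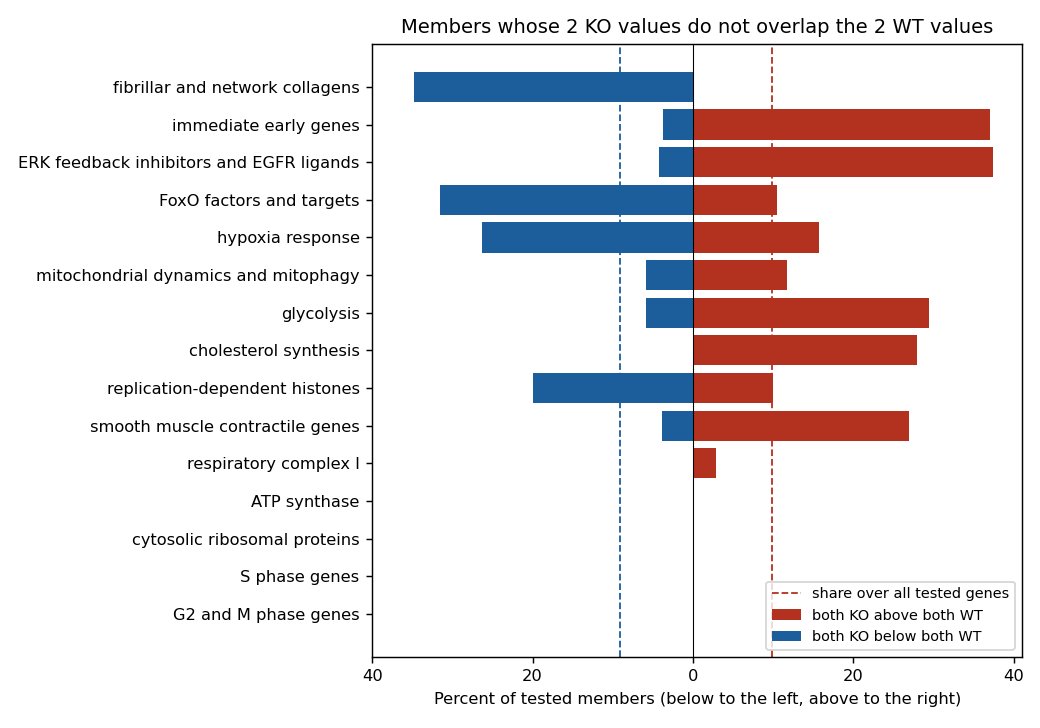
Percent of the tested members of 15 gene lists for which both miR-379KO values lay above both WT values (red, to the right) or below them (blue, to the left), with the shares over all 12318 tested genes as dashed lines (9.9% and 9.07%). Collagens reach 34.8% on the lower side, the immediate early and ERK lists 37.0% and 37.5% on the higher side, and ATP synthase, ribosomal protein and cell cycle lists have no such member.

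Classes with a positive median were not always separated. The 35 tested subunits of respiratory complex I, the entry point of electrons into the mitochondrial respiratory chain, had a median log2 fold change of 0.23. In 34 of them the fitted value was higher, yet only 1, Ndufa1, was separated. The 77 cytosolic ribosomal protein genes had a median of 0.27 with 76 higher and 0 separated. ATP synthase genes, 15 in number, had a median of 0.29 with 0 separated. The 75 mitochondrial ribosomal protein genes had a median of 0.20 with 6 separated above WT (8% against 9.9% of all genes). The level of complex I was −0.39 and 0.15 against 0.02 and 0.23, and that of ribosomal proteins −0.50 and 0.21 against −0.13 and 0.41. In both, WT A was far below and WT B lay between the miR-379KO libraries. Without WT A the medians were −0.01 for complex I and −0.04 for ribosomal proteins.

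WT A also differed from the other libraries by transcript length. Over the shortest quintile of genes, with a median exon length of 1407 bases, the median deviation of WT A on the log2(CPM + 1) scale was −0.25. Over the longest, at 9168 bases, it was 0.25. The other libraries ran from 0.10, 0.01 and 0.13 to −0.11, −0.03 and −0.10. The median log2 fold change ran from 0.15 over the shortest quintile to −0.17 over the longest. In a fit corrected for exon length and GC content the medians were 0.09 for complex I and 0.11 for ribosomal proteins, compared to −0.34 for collagens, 0.67 for immediate early genes and 0.34 for the ERK group. WT A also had the highest share of the ribosomal RNA precursor Rn45s, 9.26% of gene counts against 4.52% in WT B, 5.64% in miR-379KO A and 7.04% in miR-379KO B.

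**Figure D4:**
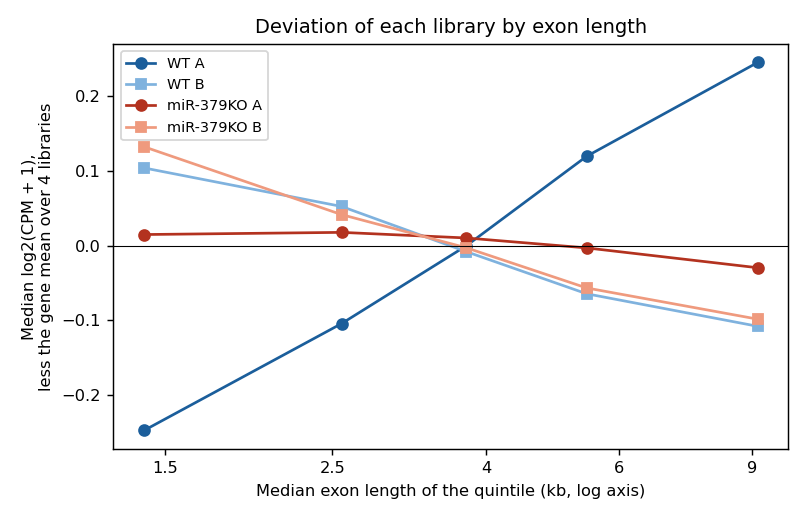
Median deviation of each library from the 4-library mean of each gene, in log2(CPM + 1), for quintiles of tested genes by exon length (median length of the quintile in kb, log axis). WT A rises from −0.25 to 0.25, and the other libraries lie between 0.13 and −0.11 with the opposite or no slope.

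Across the lists with at least 5 tested genes, 50 in all, the levels of the genotypes were apart in 9, higher in miR-379KO in 7 and lower in 2. The gap within WT was larger than the difference between genotypes in 41, where again a gap between single libraries is set against a difference of means. WT A had the lowest level of all libraries in 21. Of the 9 lists, the difference passed the gaps within both genotypes for collagens, the ERK group, hypoxia genes and mitochondrial dynamics genes, and the last 2 differed by only 0.07 each. The median log2 fold change of hypoxia genes, 0.09, was reversed to −0.0586 in the fit corrected for exon length and GC content, to −0.0865 without miR-379KO A and to −0.00215 without WT B. That of mitochondrial dynamics genes, 0.07, was reversed to −0.0206 without miR-379KO A. Mitochondrial dynamics is the function to which Fis1, a receptor for the fission machinery on the outer membrane, belongs. Of its 17 genes, Fundc1 and Mff, both receptors on that membrane, were separated above WT with log2 fold changes of 0.14 and 0.06, and Mief1, another, was below at −0.07. The shares, 11.8% above and 5.88% below, were near those of all genes (9.9% and 9.07%).

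**Figure D5:**
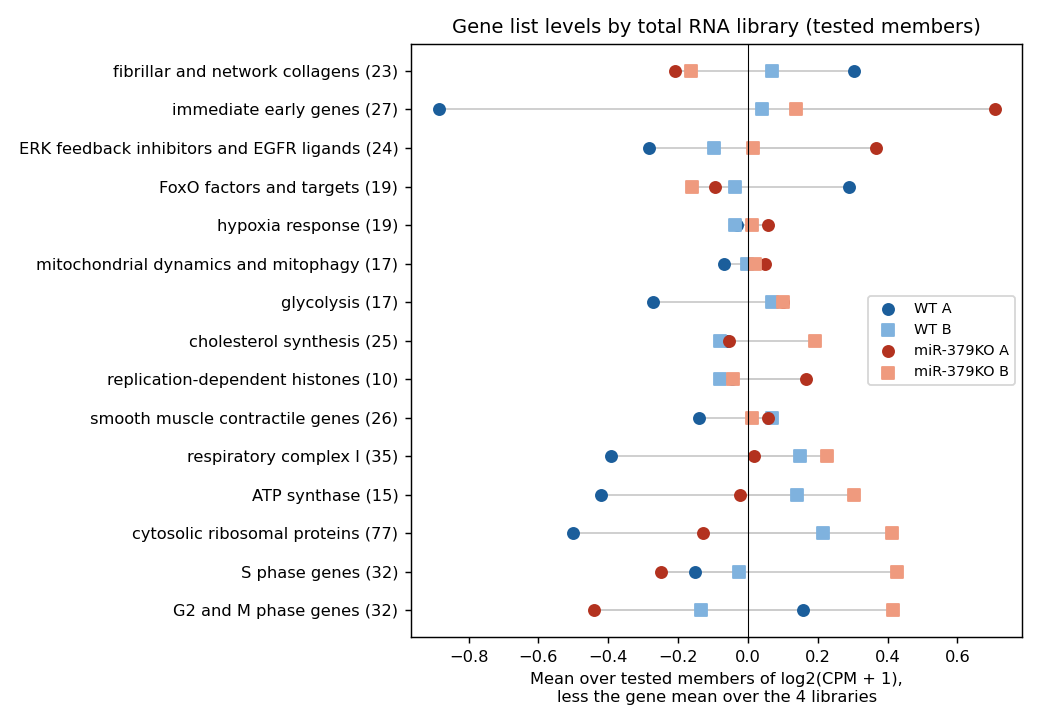
Level of 15 gene lists in each library, as the mean over tested members (their number in brackets) of log2(CPM + 1) less the gene mean over the 4 libraries. WT and miR-379KO points are apart for the 9 lists from collagens to histones, widest in collagens (0.23), and overlap in the 6 lists below them, where WT A is the lowest point in 4.

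Proliferation genes separated replicates rather than genotypes. The level of 32 G2 and M phase genes was 0.16 and −0.13 against −0.44 and 0.42, and that of 32 S phase genes was −0.15 and −0.03 against −0.25 and 0.43. Thus the lowest and the highest library of each were the miR-379KO replicates. No gene of either list was separated. Of 27 interferon-stimulated genes 5 were separated below WT (18.5% against 9.07% of all genes) and none above. The level of the list overlapped between genotypes, at 0.15 and −0.02 against 0.08 and −0.22. The 5 genes were Parp14, Psmb8, Dtx3l, Irf1 and Parp9. Irf1, the transcription factor of the group, was at 20.5 and 20.7 against 17.8 and 17.3 CPM, and the unadjusted p of these genes were between 0.18 and 0.40.

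None of the 8 candidate targets named by the study was separated in total RNA. The study's evidence for them included RNA recovered with AGO2, and reporter assays for Fis1 and Txn1, which are other measures. By quantitative PCR the study reported higher Fis1 in miR-379KO MMC than in WT MMC. Fis1 was at 45.5 and 66.6 against 61.7 and 71.1 CPM, so that WT B exceeded miR-379KO A (log2 fold change 0.25, SE 0.26, unadjusted p = 0.378). Without WT A its log2 fold change was 0.00115. Edem3, which helps to clear misfolded glycoproteins from the endoplasmic reticulum, was at 109 and 52.7 against 61.9 and 51.9 CPM (log2 fold change −0.51, SE 0.36, unadjusted p = 0.211), with WT A alone standing high. Slc20a1, a phosphate transporter and the third gene with a full seed match, was at 147 and 97.6 against 137 and 116 CPM. In RNA recovered with AGO2, the study's quantitative PCR gave a significant decrease for the other candidates but not for Slc20a1. Txn1, the redox protein thioredoxin, was at 187 and 198 against 197 and 233 CPM. The log2 fold changes of Vegfb, Hnrnpc, Clta and Ap3s1 were −0.06, 0.16, 0.21 and −0.08, and those of the 4 genes used by the study as negative controls, Rab14, Snrpe, Tcea1 and Hmgb1, were 0.04, −0.01, 0.00 and −0.03.

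Seed matches were no more frequent among the genes that were higher. Of 11894 tested genes with a RefSeq 3′ UTR, 594 (4.99%) held GTCTACC, the complement of miR-379-5p bases 2 to 8. Among genes separated above WT 3.71% held it, among those separated below 5.72%, and among the rest 5.07%. Genes with the site were separated above WT in 7.24% and below in 10.3%, compared to 9.88% and 8.9% of genes without it. Their median log2 fold change was −0.05 against 0.00, and their 3′ UTRs were longer, with a median of 2330 against 1059 bases. In the fit corrected for exon length and GC content the medians were 0.01 and 0.00.

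The labelled cell type was checked against markers of glomerular cells. Pdgfrb, the receptor that mesangial cells need to develop, was at 202 and 113 against 180.3 and 112 CPM, and Des, the intermediate filament desmin, at 107 and 790.5 against 217 and 132 CPM. Ren1 and Agtr1a were at 0 in all libraries. Notch3, a receptor of mural cells, passed the study's cutoff on the lower side at 10.1 and 10.1 against 6.35 and 5.23 CPM (log2 fold change −0.80, SE 0.28, unadjusted p = 0.0272), and Cspg4, the pericyte proteoglycan NG2, was separated below WT at 114 and 90.4 against 78.7 and 70.1 CPM. On the opposite side, Fhl2, a LIM domain protein, was separated above WT at 197 and 185 against 231 and 202 CPM. The 14 tested identity genes had overlapping levels, and their median was −0.13 on the log2 scale. In bulk RNA, fewer cells of a type and less RNA per cell cannot be told apart.

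Markers of other cells varied between libraries and did not follow genotype. The sum over 13 tubular epithelial markers was 9.90 and 68.7 against 41.4 and 15.2 CPM, high in WT B and miR-379KO A, and 3 of them, Umod, Slc34a1 and Slc12a3, had no count in any library. Sums over 11 leukocyte markers were 5.25 and 14.01 against 8.91 and 4.58 CPM, with Cd3e at 0 throughout, and over 10 glomerular endothelial markers 41.04 and 18.1 against 40.4 and 26.2 CPM. Of 8 podocyte markers, Ptpro was at 0, and the sum, most of it Synpo, was 635 and 247 against 575 and 330.4 CPM. The 11 fibroblast markers summed to 7537 and 6417 against 4468 and 7618 CPM, nearly all of it type I collagen, with Dpt at 0. Among tested markers of these 5 types, Podxl and S100a4 were separated above WT. The part of these cells in the differences above was not tested.

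Further genes met the rule for the smallest p among separated genes. On the higher side, Tm4sf1, a membrane protein of migrating cells, was at 246 and 267 against 445 and 520.2 CPM (log2 fold change 0.91, SE 0.24, unadjusted p = 0.00783). Foxs1, a forkhead factor of pericytes, was at 49.9 and 49.6 against 85.2 and 78.5 CPM (log2 fold change 0.72, SE 0.20, unadjusted p = 0.0111), and both had tight replicates. On the lower side, Svep1, a large secreted matrix protein, was at 99.4 and 81.2 against 58.1 and 55.2 CPM (log2 fold change −0.67, SE 0.21, unadjusted p = 0.0193). Kif26b, an atypical kinesin, was at 59.5 and 36.7 against 24.8 and 21.5 CPM (log2 fold change −1.05, SE 0.29, unadjusted p = 0.0107). Rnf128, Tenm3, Foxred2, Ppp1r9a and Bcl3 also stood below WT in both libraries, and Upk1b above, with log2 fold changes of −1.20, −1.45, −1.19, −0.96, −0.90 and 1.35.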

How the data were processed

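The authors deposited raw gene counts, 1 list per total RNA library, and these were used. Per the authors' methods, a stranded kit for poly(A) RNA was used, reads were aligned to mm10 with TopHat, and reads on UCSC RefSeq genes were counted with htseq-count in reverse-stranded mode. Per the labels, Bowtie2 2.1.0.1 and HTSeq 0.6.0 were used. Since strand was used, antisense genes were kept apart, but genes with near-identical copies are uncertain. The closing lines for reads outside genes were dropped, and 20 entries without a gene name (at most 0.000805% of counts) were left out. Of 24619 named entries 23612 matched RefSeq (GRCm38.p6) by symbol, 716 by synonym and 291 not.

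The quasi-likelihood F test of edgeR 4.0.16 (R 4.3.3) was applied to genotype alone, after filterByExpr (minimum count 10) and TMM scaling with robust dispersion estimates, with Benjamini-Hochberg adjustment over 12318 genes. The script was tested on simulated data. Counting error at 17168113 to 22660600 gene counts per library is small next to the spread between replicates, whose chi-square over genes, divided by its degrees of freedom, was 119 in WT and 39.1 in miR-379KO, so no library was counted as a repeat of another.

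There were 54 gene lists, chosen, like the samples and alternatives, with earlier results of these data known, and given no test. Genes were named by a rule. It took the miR-379 locus and study lists, up to 3 separated members per list and direction with the largest change at a mean of at least 10 CPM, the 2 most abundant members, the genes behind a count of 5 or fewer, and the 12 separated genes per direction with the smallest p at a mean of at least 50 counts. Some genes that met it, or that belong to the marker lists, are not reported here. Col12a1, Col4a2, Col5a1, Col6a3, Col8a1, Fos, Fosb, Insig1, Srf and Zfp36 were chosen after their values were seen. Alternatives were DESeq2 1.42.0, RLE factors, scaling without the 20 most abundant genes, no filter, a mean of at least 50 counts, all 8 libraries in 1 fit, the replicate letter as a block, a lowess correction (span 0.3) for exon length and GC content, called the GC and length offset, both together, and omission of each library.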

Additional observations from a re-analysis of the deposited data

How the results depend on the processing

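The count at an adjusted p of 0.05 was 0 in the edgeR quasi-likelihood fit and in all 13 alternatives, with 91 genes at an unadjusted p under 0.05 in edgeR and 110 in DESeq2. The 84 genes at the study's cutoff became 134 without the filter on low counts, where 16871 genes were tested, and 268 with all 8 libraries in 1 fit. With a library left out the count lay between 55 (without miR-379KO B) and 1280 (without WT B), with 422 without WT A and 147 without miR-379KO A. The 2336 separated genes became 5475 to 9639, because 3 libraries separate more easily than 4.

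The labels do not say whether the letters A and B pair the libraries, and this was not settled here. The correlation of same-letter deviations from the group means was −0.04 over 10762 genes, which are not independent replicates. The level of A minus B was −0.71 in WT and −0.54 in miR-379KO for cytosolic ribosomal proteins. For immediate early genes it was −0.92 in WT and 0.57 in miR-379KO. With the letter as a replicate block 102 genes passed the study's cutoff, compared to 84, and 0 passed the adjusted threshold.

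Leaving out a library moved list medians most. Those of collagens lay between −0.51 and −0.17, of immediate early genes between 0.44 and 1.27, of the ERK group between 0.10 and 0.57, of cholesterol synthesis between 0.0139 and 0.31, of glycolysis between −0.00585 (without WT A) and 0.47, of FoxO targets between −0.41 and 0.10 (without WT A), of mitochondrial dynamics between −0.0206 (without miR-379KO A) and 0.0896, of hypoxia genes between −0.0865 (without miR-379KO A, and −0.00215 without WT B) and 0.0747, and of histones between −0.0231 (without miR-379KO A) and 0.51. The median of hypoxia genes was 0.0255 where a mean of 50 counts was required, 0.16 with all 8 libraries, −0.0586 with the GC and length offset and −0.0591 with that offset and the replicate block. That of histones was 0.0353 with the offset and −0.0173 with the offset and the replicate block, and that of mitochondrial dynamics was 0.12 with all 8 libraries. The causes were not tested.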
